A study of Mus musculus with 22 samples.

Results

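A set of 10 genes of the Notch pathway was followed through developing mouse trachea: the receptors Notch1, Notch2 and Notch3, the ligands Jag1, Jag2, Dll1 and Dll4, and the target genes Hes1, Hey1 and Heyl. They were chosen by gene symbol, and all 10 of 10 were found among the 26202 symbols of the expression table. RNA was sequenced from whole E11.5 tracheas, with 5 tracheas per sample according to the labels. These came from control Wnt5a f/f embryos (5 libraries) and from Dermo1Cre; Wnt5a f/f embryos (4 libraries). In the latter, Cre driven by the mesodermal gene Dermo1 deletes Wnt5a from the mesenchyme while the epithelium keeps it. RNA was also sequenced from cells sorted at E13.5 from pools of tracheas carrying the smooth muscle reporter gamma SMA eGFP. These were control epithelium (EpCAM positive, 2 libraries), control muscle (GFP positive, 2 libraries), control chondroblasts (negative for both, 2 libraries) and chondroblasts of Notum 150/150 embryos (3 libraries), homozygous for a loss of function allele of Notum. The E13.5 control animals were Bmp4 f/f; gamma SMA eGFP or Notum 300/300; gamma SMA eGFP according to the labels, and which library came from which genotype could not be read from the table. Libraries are lettered within each group. In the sorted controls A carries an earlier and B a later date in its column name, and all 3 Notum mutant libraries carry the later date.

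Notch receptors are cut at the cell surface when a Jagged or Delta ligand on a neighbouring cell engages them, and the freed intracellular part enters the nucleus, binds the DNA-binding protein RBPJ and turns on Hes and Hey genes, whose products repress other genes. Because ligand and receptor sit on touching cells, the pathway sorts neighbours into different fates. In airway tissue it is best known for deciding between secretory and ciliated cells in the epithelium, for smooth muscle and mural cell identity in the mesenchyme and for vessel formation in endothelium.

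Levels are given as CPM, counts scaled to a common total, after adjusting all 18 libraries by the trimmed mean of M values (TMM), from total counts of 6880660 to 21678177 per library. The sorted populations carried their defining markers, with Epcam at 522 and 895 CPM in epithelium against at most 4.48 CPM in the other sorted libraries. Acta2 was at 7039 and 5126 CPM in muscle. Col2a1 was at 912 to 1780 CPM in the 5 chondroblast libraries against 189 to 697 CPM in epithelium and muscle. Not every cartilage marker separated them. Sox9 was at 457 CPM in muscle B against 220 CPM in control chondroblasts A. Col9a3 was at 531 CPM in muscle B against 526 CPM in control chondroblasts B. The 10 cartilage markers summed to 1270 and 2783 CPM in muscle A and B. In control chondroblasts A and B they summed to 4241 and 3650 CPM. A pair of libraries of the E11.5 set, control B and mutant D, whose columns share the number 7, stood apart with Fos at 615 and 1003 CPM against 1.82 to 37.6 CPM in the other 7 libraries. Wnt5a ran from 57.7 to 162 CPM in the E11.5 controls and from 46.5 to 127 CPM in the libraries labelled Dermo1Cre; Wnt5a f/f, and Notum was at 13.8 and 86.1 CPM in control chondroblasts and at 34.0, 35.6 and 13.9 CPM in those labelled Notum 150/150. Neither targeted gene separated its groups. Counts summed over a whole gene do not show which exons remain, so these values do not check the labels, and the directions below rest on the labels alone. In all of these bulk samples, fewer cells of a type and less RNA per cell cannot be told apart.

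**Figure D1:**
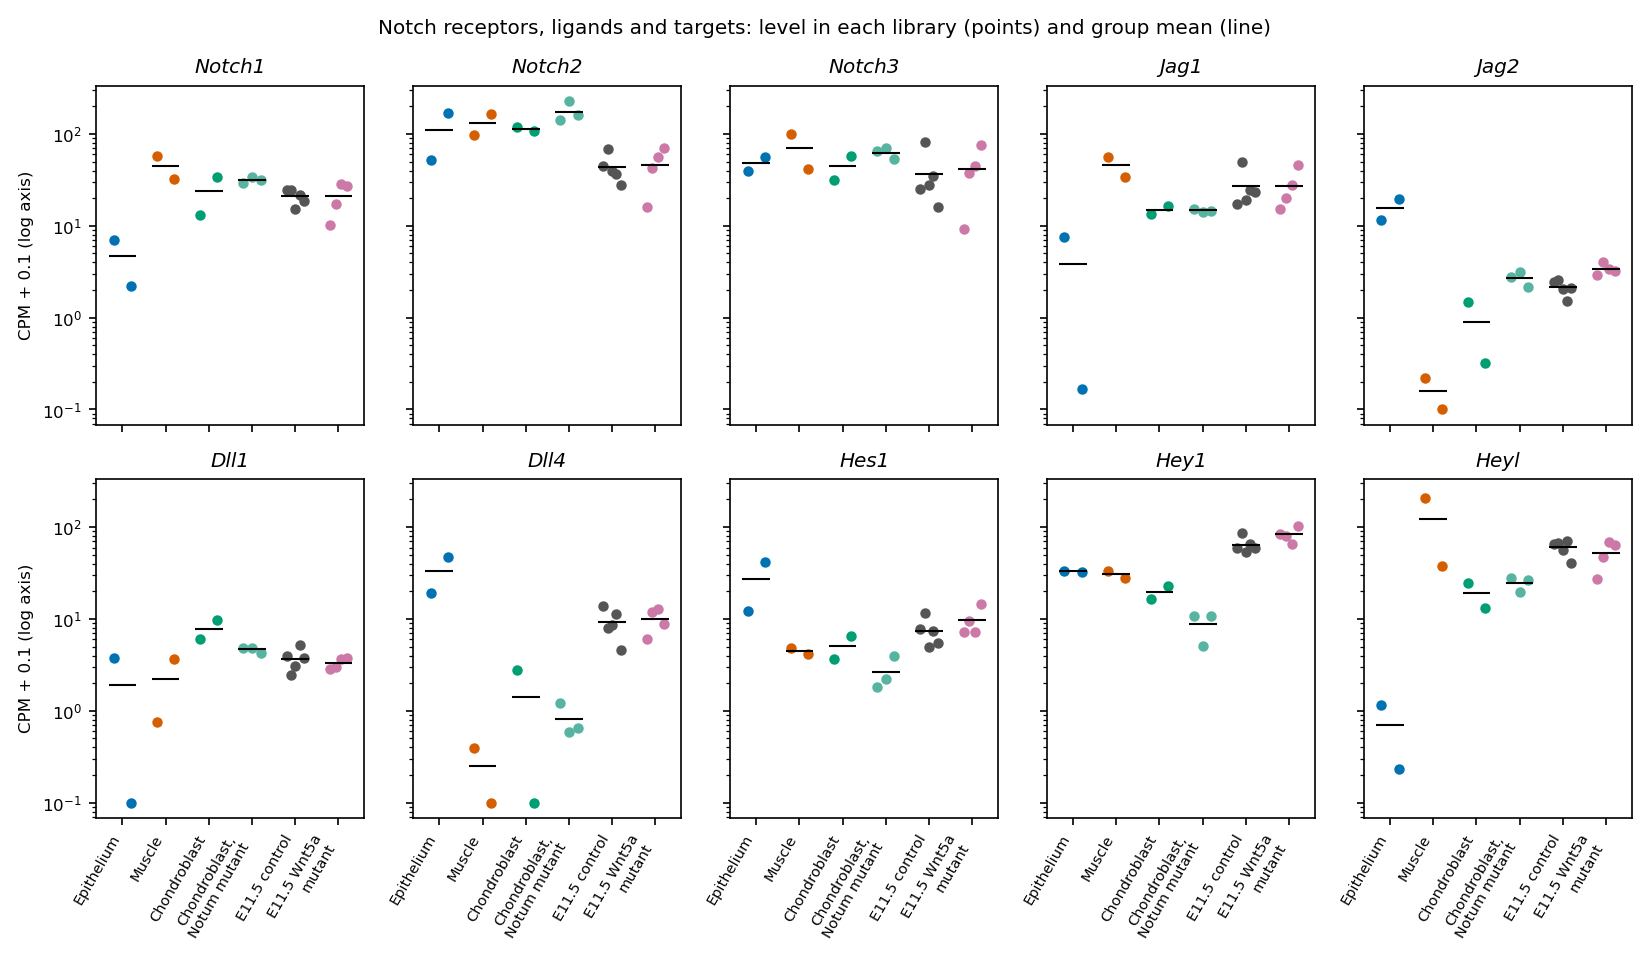
Level of each Notch gene in each library (points) and the mean of each group (line), as CPM plus 0.1 on a log axis, for the 4 groups of sorted E13.5 cells and the 2 groups of E11.5 tracheas. Dll4 and Jag2 sit highest in epithelium and at or near 0 in muscle, Heyl, Notch1 and Jag1 sit lowest in epithelium, and Hey1 sits highest at E11.5.

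Per kilobase of exon, the members kept different company in each population. In control muscle Heyl stood first at 23.9 CPM per kb, on a mean of libraries that differed widely (7.29 and 40.6 CPM per kb), followed by Notch2 at 12.3, Hey1 at 9.36, Notch3 at 8.76 and Jag1 at 7.80 CPM per kb. In control epithelium Hes1 (13.2 CPM per kb), Notch2 (10.3), Hey1 (10.1) and Dll4 (8.66) stood first, and Heyl stood last at 0.116 CPM per kb. In control chondroblasts Notch2 stood first at 10.4 CPM per kb and Jag2 last at 0.115 CPM per kb. In both E11.5 groups Hey1 stood first, at 19.8 CPM per kb in controls and 25.5 CPM per kb in mutants, and Heyl second at 11.7 and 10.2 CPM per kb.

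Among the receptors, Notch1 (chr2:26457903-26516663, minus strand, GRCm38) was the one whose level set epithelium apart from the other sorted controls. It was at 57.5 and 32.5 CPM in muscle A and B, 13.03 and 34.2 CPM in chondroblasts A and B, and 6.99 and 2.09 CPM in epithelium A and B. Both epithelial libraries lay below every other library of the series. Notch1 was lower in epithelium than in muscle by a log2 fold change of -3.29 (SE 0.88), with an unadjusted p of 0.00853 and an adjusted p of 0.113 by the quasi-likelihood test of edgeR, adjusted after Benjamini and Hochberg, and so did not pass the threshold of 0.05. The same direction held within each date, with log2 ratios of -3.04 for the earlier and -3.96 for the later libraries. Against epithelium, chondroblasts differed by a log2 fold change of 2.35 (SE 0.85, adjusted p = 0.243 in the same edgeR fit).

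Notch2 (chr3:98013527-98150361, plus strand), a receptor with wide expression in mesenchyme, had the highest mean CPM per kb of the 3 receptors in the 4 sorted groups (10.3 to 16.3), while Notch3 had it in the E11.5 controls (4.57 against 4.05) and mutants (5.12). Notch2 overlapped between all sorted controls. It was at 98.1 and 166.5 CPM in muscle, 52.1 and 169.5 CPM in epithelium, and 118 and 107 CPM in chondroblasts. The spread within epithelium exceeded any difference between the 3 populations, whose means ran from 110.8 to 132 CPM. Notch3 (chr17:32120820-32166852, minus strand), the receptor best known from vascular smooth muscle and pericytes, was at 99.97 and 41.8 CPM in muscle, 39.9 and 56.2 CPM in epithelium, and 31.3 and 57.5 CPM in chondroblasts. Its highest value came from muscle A, and the other 5 libraries of the 3 populations overlapped. Log2 fold changes of Notch2 and Notch3 between the sorted controls ran from -0.69 to 0.01, and no adjusted p was below 0.637 in the edgeR fit.

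The ligands divided between epithelium and mesenchyme. Dll4 (chr2:119325784-119335962, plus strand), a Delta ligand best known from endothelial tip cells, was at 18.9 and 47.8 CPM in epithelium A and B, 0.296 and 0 CPM in muscle, and 2.66 and 0 CPM in chondroblasts. Both epithelial libraries exceeded all others in the series. A count of 0 allows up to 0.182 CPM in muscle B and 0.222 CPM in chondroblasts B (3 counts, counting error only). Summed over libraries, epithelium held 1126 Dll4 counts and muscle 5, a ratio of 212 with an exact 95% counting interval of 90.8 to 655. Jag2 (chr12:112907819-112929776, minus strand), a Jagged ligand, followed the same order, at 11.54 and 19.7 CPM in epithelium, 0.118 and 0 CPM in muscle, and 1.38 and 0.224 CPM in chondroblasts. Epithelium held 542 Jag2 counts and muscle 2, a ratio of 256 with an exact 95% counting interval of 70.4 to 2116. Despite these gaps neither ligand passed the adjusted threshold in the main edgeR fit. Between epithelium and muscle each passed it in 3 of 15 alternative settings. The edgeR log2 fold changes of epithelium over muscle were 7.86 (SE 2.02, unadjusted p = 0.00701, adjusted p = 0.102) for Jag2 and 7.73 (SE 2.51, unadjusted p = 0.0199, adjusted p = 0.175) for Dll4.

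Jag1 (chr2:137081456-137116644, minus strand), the other Jagged ligand, ran the opposite way. It was at 56.7 and 34.3 CPM in muscle, 13.4 and 16.1 CPM in chondroblasts, and 7.47 and 0.0654 CPM in epithelium, where library B held 1 count. The 3 populations did not overlap in any pair, and the 2 epithelial libraries lay far apart. The log2 fold change of epithelium against muscle was -3.57 (SE 1.59, adjusted p = 0.302 by edgeR), and without epithelium A it was -9.29 with an adjusted p of 0.0130, resting on that 1 count. Dll1 (chr17:15367354-15376872, minus strand), the Delta ligand of somite and neural boundaries, was low throughout, at 5.88 and 9.57 CPM in chondroblasts, 0.652 and 3.53 CPM in muscle, and 3.64 and 0 CPM in epithelium. Chondroblasts were highest by mean, and muscle and epithelium overlapped. In muscle and epithelium the library higher in Dll1 was also the one higher in macrophage markers, with sums of 84.3 CPM in muscle B against 0.356 CPM in A and of 219 CPM in epithelium A against 1.11 CPM in B. In chondroblasts it was the other way, with 221 CPM in A and 141 CPM in B. The 9 neural markers summed to 18.6 and 152 CPM in muscle A and B and to 210 and 321 CPM in chondroblasts. There the library higher in Dll1 was also higher in neural markers. In epithelium it was the other way, with 46.3 CPM in A and 127 CPM in B. The part of macrophages or neural cells in Dll1 was not tested. Dll1 is the single member with 2 entries in the table, and the share of its counts given to the first entry ran from 99.4% in epithelium A to 0.1% in chondroblasts B, so its value is the sum of 2 estimates.

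RefSeq promoter windows of GRCm38.p6 (250 bases before a start) were found for 7 of the 10 members, in 8 windows, and are shown for the ligands that lay at opposite ends between epithelium and muscle. Capitals mark 2 motifs searched on both strands. The letters CACGCG are known as a binding site of Hes and Hey repressors. The letters GGGCGG form the GC box. The Dll4 stretch is chr2:119325534-119325783 on the plus strand, and the Jag1 stretch is chr2:137116645-137116770 on the minus strand, cut to the 126 bases that lie outside the gene in GENCODE as well. The Jag2 window lies inside the GENCODE gene and is not shown.
Dll4: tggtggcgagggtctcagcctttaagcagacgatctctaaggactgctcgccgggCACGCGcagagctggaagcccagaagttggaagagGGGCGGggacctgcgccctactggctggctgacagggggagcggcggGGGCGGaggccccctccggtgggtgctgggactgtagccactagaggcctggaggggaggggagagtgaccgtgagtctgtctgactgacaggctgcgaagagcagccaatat
Jag1: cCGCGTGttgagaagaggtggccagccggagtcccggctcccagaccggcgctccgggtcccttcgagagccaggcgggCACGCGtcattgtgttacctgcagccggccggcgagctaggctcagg
The Dll4 window held 1 match to the Hes and Hey letters, starting 195 bases before the start, and 2 GC boxes. The Jag1 window held 2 matches to the Hes and Hey letters, the outer one read on the other strand, and 0 GC boxes. The Jag2 window, with 87.2% G and C against a median of 52.4% over 32851 windows, held 0 and 5. Of all 32851 windows, 7.62% held the Hes and Hey letters and 32.7% the GC box. The core of the RBPJ site, TGGGAA, was found in 21.6% of all windows and in 0 of the 8 member windows. The E box, spelled CACGTG here, was found in 6.02% of all windows and in 0 of the 8. These are matches of letters in a short window and say nothing of binding.

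The target genes split as well. Heyl (chr4:123233556-123249875, plus strand), a Hey family repressor known from smooth muscle and pericytes, was at 207 and 37.2 CPM in muscle A and B, 24.7 and 13 CPM in chondroblasts, and 1.05 and 0.131 CPM in epithelium. The 3 populations did not overlap. Heyl was lower in epithelium than in muscle by a log2 fold change of -7.61 (SE 1.30, adjusted p = 0.0331 by edgeR). It was the 1 member that passed the adjusted threshold in any comparison of the main edgeR fits. Muscle held 4089 Heyl counts and epithelium 24, a ratio of 181 with an exact 95% counting interval of 121 to 282. Without muscle A the log2 fold change was -5.91 with an adjusted p of 0.159, without epithelium B -6.84 with 0.0910, and without chondroblasts A or B, which only lend their spread, -7.60 with 0.0777 or 0.0731, so each of these 4 libraries was needed for the call, which held without muscle B or epithelium A. Between chondroblasts and epithelium Heyl differed by a log2 fold change of 4.88 (SE 1.17, adjusted p = 0.0981), and between chondroblasts and muscle by -2.72 (SE 1.01, adjusted p = 0.841).

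Other markers moved with the muscle libraries. Muscle A, the library highest in Heyl, Notch1, Notch3 and Jag1, carried the skeletal muscle genes Myog at 452 CPM and Myod1 at 110.3 CPM and the pericyte gene Rgs5 at 225 CPM, where muscle B had 33.5, 1.64 and 11.7 CPM. Summed over 8 skeletal muscle markers the libraries held 939 and 105 CPM, and over 7 pericyte markers 808 and 293 CPM. The part of these cells in the Notch genes was not tested. Dll4 at 2.66 CPM and Jag2 at 1.38 CPM in chondroblasts A stood beside the endothelial gene Pecam1 at 22.8 CPM, against 0.0747 CPM in chondroblasts B. The summed level of 14 endothelial markers was 198 CPM in A and 125 CPM in B, with 13 and 10 of them at 1 CPM or more. Pecam1 does not stand for all of them. Erg, Ramp2 and Emcn were higher in B, with Ramp2 at 14.97 CPM in A and 17.64 CPM in B, while the others were higher in A. The part of these markers in the chondroblast values was not tested. In the epithelium, which held the highest Dll4, the 14 endothelial markers summed to 23.4 CPM in A and 28.2 CPM in B. Egfl7 was at 17.9 and 18.1 CPM and Pecam1 at 0.862 and 0.0654 CPM. Of the 14 markers 6 were at 0 in each library, and their part in epithelial Dll4 was not tested.

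Hes1 (chr16:30064384-30067796, plus strand), the Hes repressor that responds to Notch in most tissues, was at 12.2 and 41.8 CPM in epithelium, 4.74 and 4.04 CPM in muscle, and 3.53 and 6.50 CPM in chondroblasts. Epithelium lay above both, and its own libraries lay far apart. The log2 fold change of epithelium over muscle was 2.62 (SE 0.96, adjusted p = 0.221 by edgeR). Summed over 12 stress genes of dissociated cells, epithelium A and B held 11140 and 15040 CPM against 3891 to 8789 CPM in the other sorted controls. Atf3 was at 564 and 1372 CPM in epithelium A and B against 58.9 to 272 CPM. Not all 12 were highest there, with Hspa1a at 71.8 and 72.6 CPM against 86.0 to 418 CPM. The part of these genes in Hes1 was not tested. Hey1 (chr3:8663359-8667256, minus strand), a repressor of the Hey family, was level between epithelium at 33.3 and 32.3 CPM and muscle at 33.0 and 28.1 CPM, and was at 16.4 and 22.8 CPM in chondroblasts. Both chondroblast libraries lay below the other 4, with log2 fold changes of -0.66 against muscle and -0.77 against epithelium and adjusted p-values of 1.00 and 0.502 by edgeR.

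**Figure D2:**
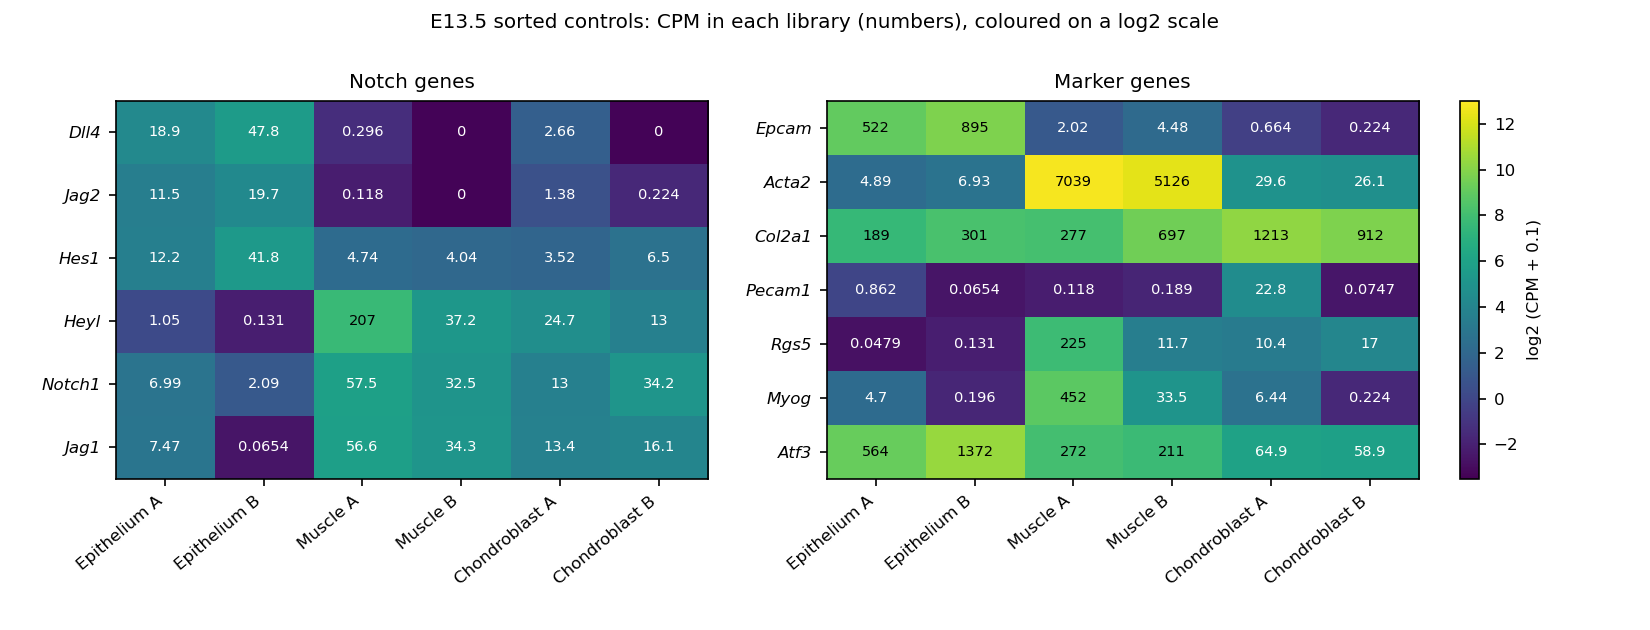
CPM of 6 Notch genes (left) and 7 marker genes (right) in the 6 sorted control libraries at E13.5, with the value printed in each cell and colour on a log2 scale of CPM plus 0.1. Dll4, Jag2 and Hes1 are highest in the Epcam-rich libraries, and Heyl, Notch1 and Jag1 are highest in muscle A, where Rgs5 and Myog are highest as well.

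Against all genes tested, the members were counted by 3 rules. From muscle to epithelium, 1 of 10 members passed an adjusted p under 0.05, where 3.58% of all genes did. The second rule was an unadjusted p under 0.05 with a fold change over 1.5. The study used these cutoffs with DESeq2 and a floor on FPKM, while here they were used with edgeR and a floor on CPM, which is not scaled by gene length. By this rule 5 of 10 members passed (Notch1, Jag2, Dll4, Hes1 and Heyl) against 17.6% of all genes, and 6 of 10 had groups that did not overlap against 51.9%. Between chondroblasts and epithelium 0 of 10 passed the adjusted threshold against 2.74%, 4 of 10 passed the p and fold cutoffs (Notch1, Jag2, Hes1 and Heyl) against 15.8%, and 8 of 10 did not overlap against 52.3%. DESeq2 called 2 members in the first count of that comparison, where it called 1554 of all 13687 genes. Between epithelium and muscle it called 5 members and 1827 of all 13687 genes. Between chondroblasts and muscle 0 of 10 passed the adjusted threshold against 0.132%, 1 of 10 (Heyl) passed the p and fold cutoffs against 5.47%, and 5 of 10 did not overlap against 40.3%. The median log2 fold change of the members was -0.22 for epithelium over muscle, where that of all genes was -0.03. It was -0.06 for chondroblasts over epithelium, with 0.02 over all genes, and -0.45 for chondroblasts over muscle, with 0.00 over all genes. With 2 libraries a group, the biological coefficient of variation was 66.8% in the sorted controls.

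**Figure D3:**
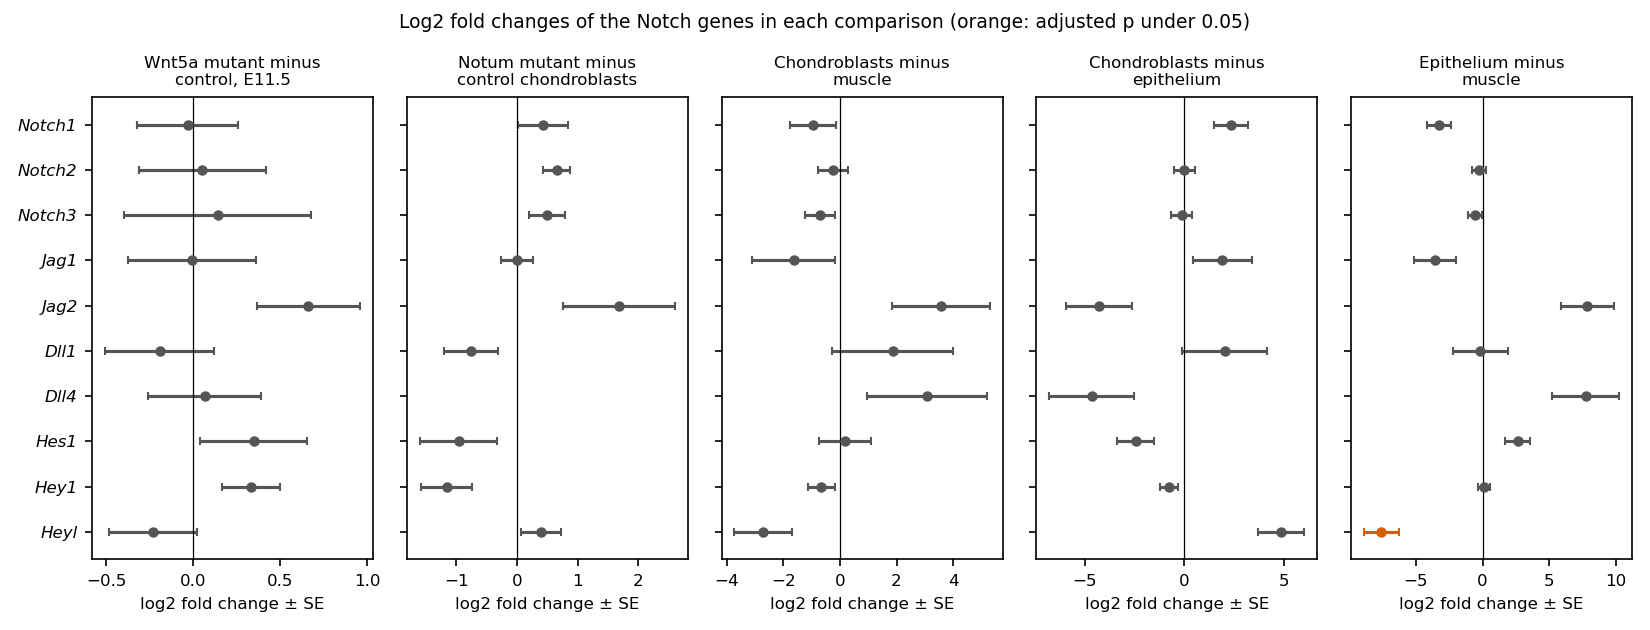
Log2 fold change with its standard error for each Notch gene in the 5 comparisons, from edgeR, with orange marking an adjusted p under 0.05. Heyl between epithelium and muscle is the single orange point, and Dll4 is not shown for the Notum comparison, where it was too low to be tested.

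Chondroblasts lacking Notum, an extracellular enzyme that inactivates Wnt ligands, were compared with control chondroblasts to ask how the loss of Notum alters gene expression in cells that build cartilage. The paper took Notum 300/300 chondroblasts as controls. Whether controls A and B were of that genotype could not be read from their columns. Hey1 was lower and Notch2 higher in the libraries labelled Notum 150/150, without overlap, and neither passed the adjusted threshold. Hey1 was at 16.4 and 22.8 CPM in controls A and B and at 10.6, 5.01 and 10.6 CPM in mutants A, B and C. All 3 mutant values lay below both controls, and the log2 fold change was -1.16 (SE 0.41, unadjusted p = 0.0299, adjusted p = 0.351 by edgeR). Against control B alone, which shares the later date with the mutants, the log2 ratio was -1.38. Notch2 was at 118 and 107 CPM in controls and at 141, 226 and 159.9 CPM in mutants. All 3 mutants lay above both controls, with a log2 fold change of 0.65 (SE 0.22, unadjusted p = 0.0230, adjusted p = 0.336) and a log2 ratio of 0.71 against control B alone.

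The other members overlapped or had larger p-values. Notch1 was at 29.4, 33.9 and 31.6 CPM in mutants and Notch3 at 64.7, 69.5 and 53.3 CPM, against 13.03 and 34.2 CPM (Notch1) and 31.3 and 57.5 CPM (Notch3) in controls A and B. Both genes overlapped, with all mutants above control A. Jag1 was at 15.3, 14.1 and 14.5 CPM in mutants, which is within or beside the control values of 13.4 and 16.1 CPM. Heyl was at 27.8, 19.5 and 26.2 CPM in mutants and overlapped its controls at 24.7 and 13 CPM. Hes1 was at 1.72, 2.11 and 3.85 CPM in mutants against 3.53 and 6.50 CPM in controls, a log2 fold change of -0.96 (SE 0.64, adjusted p = 0.567 by edgeR) with overlap of 1 mutant and 1 control. Dll1 was at 4.78, 4.76 and 4.15 CPM in mutants, below both controls at 5.88 and 9.57 CPM. Its log2 fold change was -0.75 (SE 0.45, adjusted p = 0.525). The 6 macrophage markers summed to 254 to 424 CPM in mutants and 141 to 221 CPM in controls, without overlap. The sums of cartilage markers (4853 to 6037 against 3650 to 4241 CPM), smooth muscle markers (82.3 to 116 against 73.2 to 73.4 CPM) and pericyte markers (325 to 343 against 308 to 316 CPM) were also higher in mutants without overlap, and that of epithelial markers was lower (17.5 to 30.2 against 37.5 to 40.3 CPM). The part of other cells in the Notch genes was not tested. Dll4 was at 1.11, 0.491 and 0.543 CPM in mutants against 2.66 and 0 CPM and was too low to be tested.

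Jag2 depended on which control it was set against. It was at 2.65, 3.04 and 2.07 CPM in mutants and at 1.38 and 0.224 CPM in controls A and B, so that the groups did not overlap. The log2 fold change was 1.68 (SE 0.92, adjusted p = 0.495 by edgeR). With a term for the date, which leaves control B as the only comparison, it was 3.48 with an adjusted p of 0.0394, in a fit that called 2604 of 14120 genes on the spread of the 3 mutants alone. Control B held 3 Jag2 counts, and the ratio of the mutants to it was 11.8 with an exact 95% counting interval of 3.96 to 57.8, against 2.10 with an interval of 1.39 to 3.29 for control A.

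In the Notum comparison 0 of 9 members tested passed the adjusted threshold, as did 0.0% of all 14120 genes, while 1762 genes had an unadjusted p under 0.05 and DESeq2 called 526 genes and 0 members. By the p and fold cutoffs 2 of 9 members passed (Notch2 and Hey1) against 8.41% of all genes. Groups of 4 of 9 members (Notch2, Jag2, Dll1 and Hey1) did not overlap, against 33.6%, which is the share to read this count against. The 3 receptors all had positive log2 fold changes (0.43 to 0.65), and for Notch1 this turned to -0.12 with control A left out.

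**Figure D4:**
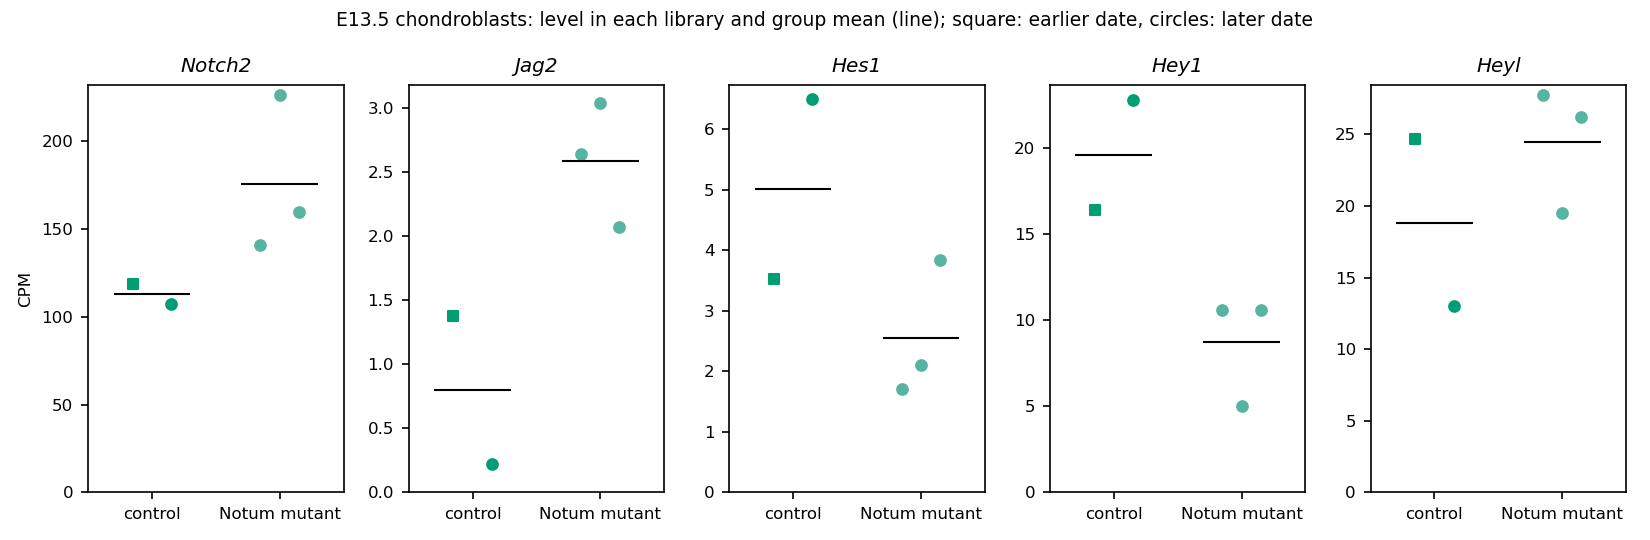
CPM of 5 Notch genes in the 2 control and 3 Notum mutant chondroblast libraries at E13.5, with the group mean as a line, a square for the earlier date and circles for the later date. Hey1 lies lower and Notch2 and Jag2 higher in the mutants without overlap, and Hes1 and Heyl overlap.

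Tracheas lacking mesenchymal Wnt5a, a ligand of the non-canonical Wnt pathway, were compared with controls at E11.5 to ask which genes respond to its loss before cartilage forms. Jag2 was the member that separated the groups, at low level. It was at 2.33, 2.50, 1.93, 1.41 and 2.03 CPM in the control libraries A to E and at 2.84, 3.96, 3.30 and 3.08 CPM in mutants A to D. Each mutant exceeded each control, and the log2 fold change was 0.66 (SE 0.30, unadjusted p = 0.0474, adjusted p = 1.00 by edgeR). With the replicate block, which pairs libraries whose columns share a number, the log2 fold change was 0.70 with an unadjusted p of 0.0631, and the mutant was higher in 4 of 4 pairs. Jag2 rested on 14 to 72 counts per E11.5 library. Summed over 8 epithelial markers, the controls held 281 to 441 CPM and the mutants 335 to 804 CPM, with the highest in mutant A, and the part of epithelial cells in Jag2 was not tested.

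Hey1 was at 59.3, 85.5, 54.0, 65.1 and 58.9 CPM in the 5 controls and at 84.2, 79.5, 65.8 and 103 CPM in mutants A to D. The groups overlapped through control B, the library of number 7. The log2 fold change was 0.33 (SE 0.17, unadjusted p = 0.0751, adjusted p = 1.00), and it was 0.33 with an unadjusted p of 0.0316 and an adjusted p of 0.957 under the replicate block, the mutant being higher in 4 of 4 pairs by log2 ratios of 0.27 to 0.42. Hes1 was at 7.62, 11.54, 4.87, 7.23 and 5.35 CPM in controls and at 7.04, 9.52, 7.06 and 14.5 CPM in mutants, and overlapped. Heyl was at 65.0, 67.0, 56.8, 70.6 and 40.2 CPM in controls and at 27.5, 47.8, 68.8 and 64.1 CPM in mutants, and overlapped too. Dll4 ran from 4.48 to 13.8 CPM in controls and from 5.89 to 12.9 CPM in mutants, and Dll1 from 2.35 to 5.15 and from 2.78 to 3.61 CPM.

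Notch2, Notch3 and Jag1 differed more between libraries of a genotype than between genotypes. Notch3 was at 25.3, 81.0, 27.8, 35.1 and 15.8 CPM in controls and at 9.06, 37.1, 44.5 and 74.9 CPM in mutants. Jag1 was at 17.2, 49.9, 19.2, 24.6 and 23.4 CPM in controls and at 15.2, 19.8, 27.7 and 46.3 CPM in mutants. In both genes control B and mutant D were the highest of their group, and the same libraries were highest in Notch2 (69.3 and 70.4 CPM) and Hes1. They held 3558 and 4430 CPM of 12 dissociation genes against 223 to 577 CPM in the other 7, and the part of dissociation in these genes was not tested. Notch1 ran from 15.1 to 24.8 CPM in controls and from 10.2 to 28.8 CPM in mutants. Log2 fold changes of the 3 receptors and Jag1 were between -0.03 and 0.14 with standard errors of 0.29 to 0.54.

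By the adjusted threshold 0 of 10 members were called, where 0.0136% of 14663 genes were, 672 genes had an unadjusted p under 0.05 and DESeq2 called 40 genes and 0 members. By the p and fold cutoffs 1 of 10 members (Jag2, at 0.202 to 0.569 CPM per kb in the 9 libraries) passed against 3.72% of all genes, and it was the 1 of 10 whose groups did not overlap, against 1.26%. Under the replicate block 0 of 10 passed those cutoffs. In the same E11.5 libraries the 8 skeletal muscle markers summed to 63.1 to 125 CPM in controls and 160.5 to 212 CPM in mutants, without overlap, and their part in the Notch genes was not tested.

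**Figure D5:**
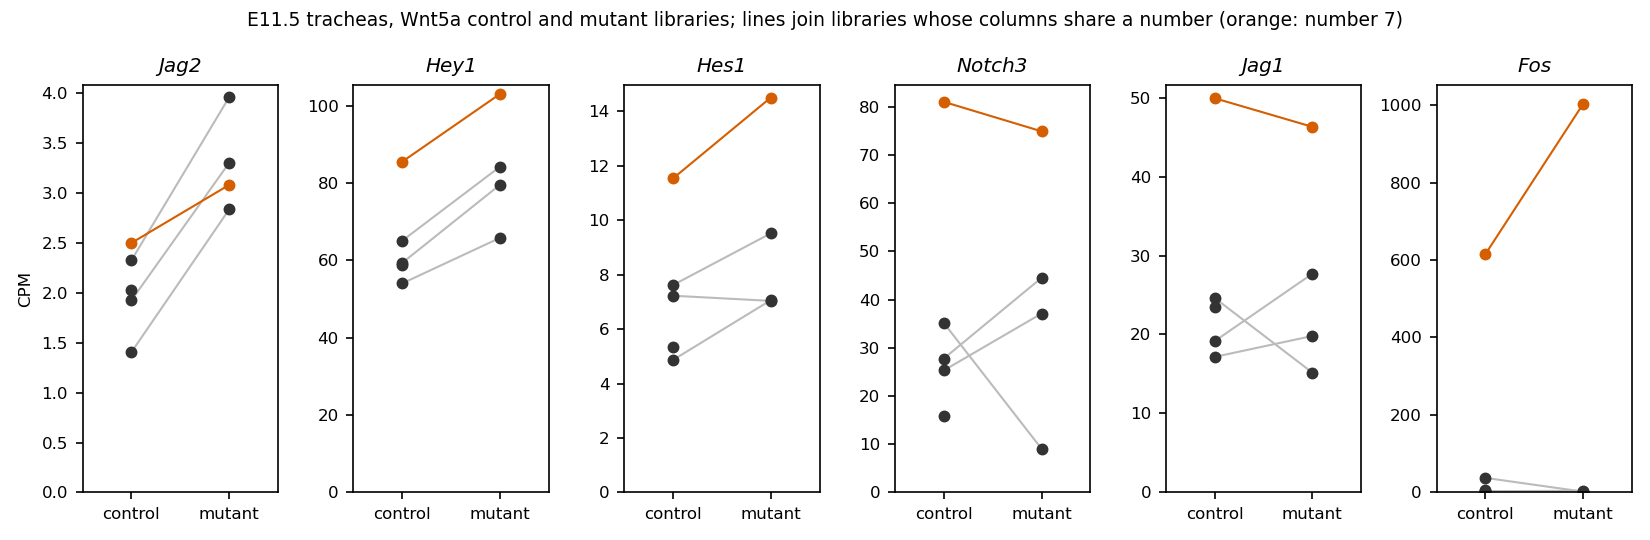
CPM of 5 Notch genes and of the stress gene Fos in the E11.5 Wnt5a control and mutant libraries, with lines joining libraries whose columns share a number and orange for number 7. Jag2 and Hey1 are higher at the mutant end of each of the 4 lines, and the orange libraries are the highest of their group in Hey1, Hes1, Notch3, Jag1 and Fos.

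Between stages and tissues the levels are a description, since stage, sorting and tissue cannot be told apart. Hey1 was highest in the E11.5 tracheas, where the lowest library (54.0 CPM) exceeded the highest sorted library (33.3 CPM). Dll4 at E11.5 (4.48 to 13.8 CPM) lay between epithelium and the other sorted cells without overlap. Notch2 had lower means at E11.5 (43.6 and 46.0 CPM) than in any sorted group (110.8 to 176 CPM), and its ranges overlapped through epithelium A. Ordered by mean over the 6 groups, Notch2 and Notch3 showed no gap between any neighbours beyond the spread of their libraries. Notch1 showed 1 gap, between epithelium and the rest, and Heyl showed the same one. Hes1 overlapped between all neighbours down to the Notum mutant chondroblasts, which lay below muscle. Jag1 lay higher in muscle and the E11.5 controls than in both chondroblast groups, the E11.5 mutants overlapped those groups through mutant A (15.2 CPM), and epithelium was lowest without overlap.

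Of 47 other genes of the pathway, chosen from a fixed list of receptors, ligands, modifying enzymes, proteases, nuclear partners, brakes and targets, 39 were tested in the sorted controls, 39 in the Notum comparison and 41 at E11.5. Dlk1, a membrane protein related to Delta that lacks the domain for receptor activation, was lowest in epithelium. It was at 33.5 and 59.5 CPM in epithelium, 228 and 403 CPM in muscle, and 373 and 485 CPM in chondroblasts, given as lowest and highest of each pair. It was higher in chondroblasts than in epithelium by a log2 fold change of 3.19 (SE 0.40, adjusted p = 0.0158) and lower in epithelium than in muscle by -2.76 (SE 0.40, adjusted p = 0.0196 by edgeR). Adam10, the protease that makes the first ligand-dependent cut of the receptors, was at 201 and 224 CPM in epithelium against 82.9 and 85.6 CPM in muscle (log2 fold change 1.34, SE 0.19, adjusted p = 0.0196), with chondroblasts between at 139 and 143 CPM. Those were the calls among the other pathway genes, 2 of 39 between epithelium and muscle against 3.58% of all genes, 1 of 39 between chondroblasts and epithelium against 2.74%, and 0 of 39 between chondroblasts and muscle against 0.132%. With single libraries left out the adjusted p of these 3 calls reached up to 0.0978 for Dlk1 against chondroblasts, 0.0775 for Dlk1 against muscle and 0.1105 for Adam10, and each call was lost at least once.

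In the Notum comparison 0 of the 39 were called, and those with the smallest p included Spen, a corepressor that holds RBPJ targets off, and Numb, an inhibitor of the receptors. Spen was at 8.00 and 10.7 CPM in controls and at 22.2 to 25.1 CPM in mutants (log2 fold change 1.32, SE 0.26, adjusted p = 0.239). Numb was at 47.8 and 53.7 CPM in controls and 30.3 to 34.1 CPM in mutants (log2 fold change -0.62, SE 0.17, adjusted p = 0.282). DESeq2 called Spen, at an adjusted p of 0.00116, in a fit that called 526 of 14120 genes. Of the 39, 20 had positive and 19 negative log2 fold changes, where 7331 of all 14120 genes had positive ones, and 20 did not overlap against 33.6% of all genes. By the p and fold cutoffs 6 of the 39 passed as higher and 1 as lower, against 8.41% of all genes in both directions. By group, 7 of 8 nuclear partners, 4 of 10 cleavage genes and 2 of 8 brakes had positive log2 fold changes. So did 3 of 4 genes of ligand endocytosis, 2 of 4 glycosylation enzymes, 1 of 3 other receptors and ligands and 1 of 2 other targets. At E11.5 0 of 41 were called, and the 3 smallest p belonged to Hes6, a Hes protein that counteracts Hes1 and is active in muscle and neural precursors (64.1 to 77.2 CPM in controls and 73.0 to 156.7 CPM in mutants), Aph1c and Psen2, which are subunits of the protease gamma-secretase, all with adjusted p-values of 1.00 and overlapping groups. Aph1c has a close copy, Aph1b, with which reads may be shared.

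The genes whose pattern over the 18 libraries lay nearest to each member are a description, since libraries of a group share their tissue. Dll4 lay nearest to Gprc5a (r = 0.984 in log2 CPM), Entpd3 and Ripk4, and Jag2 to Nat8f4, Elmo3 (both r = 0.97) and Large2. Heyl lay nearest to Fitm1 (r = 0.959), Cnn2 and Lin7a, Notch1 to Itga5 (r = 0.95), Ror2 and Zfpm2, and Jag1 to Wdr25, Pknox2 and Itgb8 (all r = 0.95). Notch2 lay nearest to Fbn2 (r = 0.945), Ptprs and Gtf2i, Notch3 to Dvl2, Zfp106 and Cnot3 (r = 0.922 to 0.925), and Dll1 to Coro1a (r = 0.96), Ttc38 and Tec. Hes1 lay nearest to Gm12070 and Gm5523 (r = 0.913 to 0.923), and Hey1 was the member with the least close neighbours, Spc24, Eno3 and Pfdn1 (r = 0.88 to 0.889). Among the 10 members Jag1 and Heyl ran most alike (r = 0.90 over the 18 libraries), and Notch2 and Hey1 ran most opposite (r = -0.78), followed by Notch1 and Jag2 (r = -0.70).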

How the data were processed

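RNA of E11.5 tracheas and of cells sorted at E13.5 was sequenced after amplification. The authors deposited estimated counts in a single table with 1 column per library, of which 56.0% of values were fractional. It listed 47248 entries under 26202 symbols. The submitters' processing notes name mm10, Partek and limma. The aligner and the counting tool are not given in the sources used here. Of 22 columns, 18 could be tied to 1 group each by name, and 4 columns of per-sample values fitting none of the labels were left out. The E13.5 groups thus hold fewer libraries than the labels list. Nothing ties a column to one of the listed samples, so p-values measure the spread between these libraries.

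Entries of a symbol were summed and rounded, as the planned test assumed whole counts. A gene entered a test if it reached 1 CPM in over 50% of libraries in at least 1 of the groups fitted, using edgeR 4.0.16 (R 4.3.3), TMM scaling, the quasi-likelihood test, 2-sided, and Benjamini-Hochberg adjustment over all genes tested. Standard errors were taken as the absolute log2 fold change over the root of the F statistic. The 3 sorted controls shared 1 fit. Positions and exon lengths are from GENCODE M21 (GRCm38). The test was checked on simulated counts. Alternatives were DESeq2 1.42.0, limma 3.58.1 (voom), other scalings and filters, one entry per symbol, all libraries in one fit, each library left out and a term for the date or column number. Leaving out both libraries of number 7 was added after seeing the data.

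The E11.5 columns carry numbers, 4 of which occur in both groups. Deviations from the group means correlated over genes within each such pair (r = 0.14, 0.19, 0.10 and 0.53). Between libraries of different numbers r ran from -0.322 to 0.219. The highest of these, control E with mutant A, exceeded all but the largest value within a pair. These correlations thus do not settle the pairing, which rests on the shared numbers. It was used in the replicate block and the counts of pairs, and not in the main test. The named genes were the 10 members, the targeted genes, other pathway genes by smallest p and the 3 genes nearest to each member. Some of these genes are not reported here. Members and lists were chosen with earlier results of these data known. The depth floor of 3 counts was 0.138 to 0.436 CPM per library. No molecular identifiers are described, so floors and intervals cover counting error only.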

Additional observations from a re-analysis of the deposited data

Results flagged for a closer look

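In groups of 4 or 5 libraries, 24 sets of values were looked at (12 genes in the E11.5 control and mutant groups) for a library lying far from the others, which chance gives in about 1 in 20 sets, and 2 stood out. Jag1 was at 49.9 CPM in E11.5 control B, against 17.2 to 24.6 CPM in the other 4 controls. Notum was at 15.3 CPM in the same library, against 1.45 to 5.19 CPM in the other 4. Control B and mutant D, whose columns share the number 7, were also the libraries with high dissociation genes (Fos at 615 and 1003 CPM). Jag1 was at 46.3 CPM and Notum at 11.53 CPM in mutant D, each the highest of its group. The part of dissociation in these values was not tested. Without control B the log2 fold change of Jag1 between the E11.5 groups was 0.31.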

How the results depend on the processing

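Over 49 results on single members, 795 values were recomputed under other settings. Of these 700 kept direction and side of the adjusted threshold, 6 lost the call, 30 gained one and 54 turned direction. The remaining 5 had no test and lay further off than the spread or, for Notch1 in the Notum comparison, turned direction. The causes were not tested. The counts of members called by adjusted p were 0 at E11.5, 0 for Notum, 0 for chondroblasts against muscle, 0 for chondroblasts against epithelium and 1 for epithelium against muscle. By the p and fold cutoffs (unadjusted p under 0.05 and fold over 1.5) the counts were 1, 2, 1, 4 and 5. With each library left out at E11.5, 0 members were called by adjusted p, where 0 to 3 of all genes were. By the p and fold cutoffs 0 to 1 members passed there, against 320 to 935 of all genes. In the other comparisons leaving out a library can leave 1 in a group, so counts of members are not given for those fits. Over all genes, adjusted calls by edgeR, DESeq2 and edgeR with no filter numbered 2, 40 and 9 at E11.5, 0, 526 and 42 for Notum, 18, 255 and 305 for chondroblasts against muscle, 375, 1554 and 1463 for chondroblasts against epithelium and 490, 1827 and 1620 for epithelium against muscle. With all 18 libraries in one fit they numbered 0, 9, 532, 2961 and 3576.

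At E11.5 the 1 member by the p and fold cutoffs (Jag2) became 0 with no filter, with the highest entry per symbol, with 18 libraries in one fit, under the replicate block, without both libraries of number 7 and with both together. The block changed no other call on a member. Of the 20 alternatives at E11.5, 8 kept the count of 1, and some fits with a single library left out lost it. The sorted columns carry no replicate number, only a date, and the term for the date stands in for a block there. For Notum, a term for the date left control B as the only control library, and its counts of calls are not given. For chondroblasts against muscle 1 adjusted call came with no filter and 1 with 18 libraries in one fit, and the p and fold cutoffs gave 2 with DESeq2, 2 with no filter, 0 with a minimum of 10 counts, which leaves fewer genes, 3 with 18 libraries and 2 with only the 2 populations compared. For chondroblasts against epithelium the adjusted calls were 2 with DESeq2, 3 with no filter, 5 with 18 libraries and 1 with the date term, and the p and fold cutoffs gave 2 with voom and 2 with the minimum of 10 counts. For epithelium against muscle the adjusted calls were 5 with DESeq2, 0 with voom, 5 with no filter, 0 with the minimum of 10 counts, 6 with 18 libraries and 0 with only the 2 populations, and the p and fold cutoffs gave 2 with the minimum. Heyl was at an adjusted p of 0.242 with voom and 0.0531 with only the 2 populations.

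Directions (log2 fold changes) turned as follows. They include Dll4 for chondroblasts against muscle, from 3.07 to -4.37 without chondroblasts A, and Notum in the Notum comparison, from -0.85 to 1.01 without control B. At E11.5 Notch1 was 0.041 with library size only and 0.0028 with no filter, and ran from -0.23 to 0.19 with each library left out. Notch2 was -0.13 with voom, -0.19 under the replicate block, -0.011 without number 7 and -0.27 with both, and ran from -0.21 to 0.33. Notch3 was -0.079 with voom, -0.16 under the block and -0.19 with block and number 7 left out, and ran from -0.29 to 0.61. Jag1 was 0.059 with library size only, 0.022 with no filter and 0.0083 with block and number 7 left out, and ran from -0.36 to 0.31. Dll4 was -0.11 under the block and -0.19 with number 7 left out too, and ran from -0.093 to 0.25. Wnt5a ran from -0.43 to 0.052 and Notum from -0.15 to 1.06. In the Notum comparison Notch1 was -0.12 with the date term and ran from -0.12 to 1.29. Jag1 was 0.031 with voom, 0.079 with library size only and 0.0076 with the minimum, and ran from -0.15 to 0.14. Heyl ran from -0.0035 to 0.91. Wnt5a was 0.015 with library size only and 0.18 with the highest entry, and ran from -0.13 to 0.031, and Notum from -1.64 to 1.01. For chondroblasts against muscle Notch2 ran from -0.58 to 0.17, Notch3 from -1.22 to 0.079, Dll4 from -4.37 to 7.49, Hes1 from -0.35 to 0.55 and Notum from -2.17 to 1.12. For chondroblasts against epithelium Notch2 was -0.042 with library size only and ran from -0.59 to 1.07, and Notch3 from -0.66 to 0.24. For epithelium against muscle Notch2 ran from -1.33 to 0.35, Notch3 from -1.05 to 0.21, Dll1 from -8.09 to 1.5 and Hey1 from -0.0014 to 0.24.

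Depth limits Dll4, Jag2, Dll1 and Heyl where libraries hold few counts, and 2 libraries a group leave wide errors for the sorted cells.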
